A study of Mus musculus with 12 samples.

Results

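In cultures of adult mouse dorsal root ganglion (DRG) neurons, 10 genes of axon growth were followed: Gap43, Basp1, Marcks, Marcksl1, Stmn1, Stmn2, Stmn3, Stmn4, Sprr1a and Dpysl2. They were taken by symbol from the deposited count tables. The table of the libraries labelled Cre- lists all 10 among its 14177 genes, and the table of the libraries labelled Cre+ lists 9 among its 9112 genes, without Marcksl1. The smallest count of any gene in any library is 5 in the Cre+ table. In the Cre- table, 5 is the smallest of the genes' highest counts. Genes with a lower count in any Cre+ library are thus not listed in Cre+, and a gene missing there may still be expressed. The mice carried the RiboTag allele on both chromosomes (Rpl22HA/HA), in which Cre recombinase adds an HA tag to the ribosomal protein Rpl22. In the Cre+ mice, Cre came from the Runx3 gene, a transcription factor gene of proprioceptors, the sensory neurons of muscle stretch. The Cre- mice were littermates with the RiboTag allele and without the driver. Each library was made from neurons of 5 pooled male mice, aged 3 to 6 months by the labels and somewhat younger by the study's methods, that were purified on Percoll and grown for 24 h on laminin. RNA came from the anti-HA pull-down of the lysate, or from 10% of the lysate as input, with 3 libraries in each of the 4 groups. A bulk library of this kind cannot tell apart fewer cells of a type and less RNA per cell.

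The genes fall into families with separate tasks. Gap43, Basp1, Marcks and Marcksl1 encode acidic proteins of the inner face of the plasma membrane, which bind phosphoinositides and, in their phosphorylated or calmodulin-bound state, let go of membrane or actin. The stathmins bind tubulin dimers and promote microtubule turnover. Stmn1 is found in many dividing and immature cells, whereas Stmn2 (SCG10), Stmn3 (SCLIP) and Stmn4 (RB3) belong to neurons. Dpysl2 encodes CRMP2, a tubulin carrier of the growing axon, and Sprr1a encodes a small proline-rich protein of the skin barrier that DRG neurons switch on after axotomy. Placing neurons in culture cuts their axons, and genes of this kind are known to be induced by it.

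The coding sequences show what divides the families, and they are printed for that reason, 5′ to 3′, from GENCODE M21 transcripts on GRCm38 (mm10). Basp1, Marcks and Marcksl1 start with a glycine codon after the start codon, the known place of a myristoyl anchor, and Gap43 has a pair of cysteine codons as its codons 3 and 4, the known place of its palmitoyl anchor. In these first 10 codons, capitals mark the glycine codon behind the start codon and all cysteine codons.
Gap43: atgctgTGCTGTatgagaagaaccaaacag
Basp1: atgGGAggcaagctgagcaagaagaagaag
Marcks: atgGGTgcccagttctccaagaccgcagcg
Marcksl1: atgGGCagccagagctctaaggctccccgg
Stmn2 and Stmn3 carry cysteine codons 22 and 24 and Stmn4 carries cysteine codons 20 and 22, in an extension that holds these stathmins on membranes. Stmn1, which is cytosolic, has 0 cysteine codons among its first 25. Capitals again mark the cysteine codons.
Stmn1: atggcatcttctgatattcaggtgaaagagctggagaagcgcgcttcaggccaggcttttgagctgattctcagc
Stmn2: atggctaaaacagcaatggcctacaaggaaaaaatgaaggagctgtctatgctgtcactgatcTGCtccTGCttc
Stmn3: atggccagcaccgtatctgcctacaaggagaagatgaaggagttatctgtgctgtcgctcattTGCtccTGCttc
Stmn4: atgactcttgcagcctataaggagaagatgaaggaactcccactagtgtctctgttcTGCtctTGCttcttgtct

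The relatives are alike enough to ask whether reads could be assigned to the wrong gene. Coding identity between pairs of stathmins was 70.4% to 73.6%, against 68.9% for Marcks and Marcksl1 and 61.7% for Gap43 and Basp1. The longest stretch shared by any of these pairs was 43 bases, in Stmn1 and Stmn2, which is shorter than a read of 50 bases. The stretch is printed with 12 flanking bases on each side, the shared bases in capitals, from coding base 250 to 316 of Stmn1 and 352 to 418 of Stmn2.
Stmn1: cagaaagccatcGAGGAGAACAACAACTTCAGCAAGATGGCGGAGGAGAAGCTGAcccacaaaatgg
Stmn2: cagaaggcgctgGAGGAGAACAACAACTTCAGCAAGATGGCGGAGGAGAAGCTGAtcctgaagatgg
All other pairs shared at most 21 bases in a row. Pseudogenes were a separate matter. Of the 50-base windows of the Stmn1 transcript, 36.5% occur also in another annotated transcript, nearly all of them in the processed pseudogene Gm11223, and only uniquely mapped reads were counted. The share was 1.61% for Marcksl1, 0.18% for Marcks and 0 for the other 7 genes. Counts of Stmn1 are therefore less certain than those of its relatives.

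The genes do not overlap each other in the genome. On GRCm38, Gap43 spans chr16:42248442-42340651 (minus strand), Basp1 chr15:25363277-25413764 (minus), Marcks chr10:37133375-37138920 (minus) and Marcksl1 chr4:129513581-129515985 (plus). The stathmins span chr4:134468320-134473843 (Stmn1, plus), chr3:8509360-8561606 (Stmn2, plus), chr2:181306459-181314500 (Stmn3, minus) and chr14:66344296-66361680 (Stmn4, plus). Sprr1a spans chr3:92483952-92485895 (minus) and Dpysl2 chr14:66802864-66868688 (minus). The strand used in counting is not given in the sources used here. Exons of other annotated genes overlapped 3.43% of the exon bases of Stmn1 (a microRNA gene, Gm23634) and none of the exon bases of the other 9 genes.

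Totals of 8886308 to 18633365 counts stood behind the libraries, and the lowest count of any of the 10 genes was 41, for Marcksl1. Library quality was uneven. Pairs of Cre+ pull-downs correlated across genes with r of 0.710 to 0.846, against 0.938 to 0.974 for pairs of Cre- pull-downs and 0.922 to 0.978 for pairs of inputs. The ribosomal RNA precursor Rn45s took 2.80% to 3.35% of the counts of the Cre+ pull-downs against 5.96% to 8.53% of their inputs, and 3.79% to 4.38% against 5.70% to 6.59% in Cre-, and its part in the values of the 10 genes was not tested. The driver gene Runx3 went against the labels. Its normalized counts were 22.8, 2.07 and 11.1 in the pull-downs labelled Cre+ against 4.28, 2.39 and 5.55 in their inputs (FDR 0.309), but 20.8, 36.0 and 51.4 in those labelled Cre- against 4.70, 1.90 and 2.88 (FDR 0.000236, edgeR). Among 6 proprioceptor markers, all 6 were called higher in the pull-downs labelled Cre-, with the smallest FDR in Pvalb, Ntrk3, Spp1 and Etv1 (log2 fold changes of 2.05 to 2.98), and 1 of 5 tested, Ntrk3, in those labelled Cre+ (2.19). Their summed level was above the inputs in all pull-downs of both genotypes, at 351 to 527 normalized counts against 179 to 242 in Cre+ and 1251 to 1549 against 210 to 293 in Cre-. The sum covers 5 listed genes in Cre+, without Pvalb, and 6 in Cre-. In Cre+ the higher sum came mostly from Ntrk3, which went from a mean of 63.0 to 287, whereas Spp1 stood at -0.95 ± 0.43 (FDR 0.220). By design the Cre- mice make no HA-tagged Rpl22, so that from the deposited counts alone RNA bound without a tag and exchanged labels cannot be told apart in the pull-downs labelled Cre-. The groups are therefore named throughout as their libraries are labelled, and any direction between genotypes rests on those labels.

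How abundant the transcripts were relative to each other was read from normalized counts per kb of transcript (counts per 1000000 after TMM scaling, divided by transcript length; mean ± SD, n = 3). In the Cre- inputs, Stmn2 was the most abundant at 748 ± 60.9, followed by Sprr1a at 693 ± 173 and Gap43 at 441 ± 75.3, and in this order neighbouring genes overlapped between libraries. A middle tier held Stmn4 at 167 ± 33.6, Basp1 at 165 ± 22.2, Dpysl2 at 147 ± 7.33 and Stmn3 at 128 ± 21.4, again with overlapping neighbours. Every library of the middle tier was below every Gap43 value. Marcks followed at 54.4 ± 8.54, Stmn1 at 29.2 ± 9.45 and Marcksl1 at 6.88 ± 0.25, each apart from the gene above it. In the Cre+ inputs the first 5 places were the same, and Stmn1 stood above Marcks, at 78.0 ± 17.8 against 47.8 ± 0.62. Pull-downs kept Stmn2 and Sprr1a in front, with 798 ± 120 and 459 ± 166 in Cre- and 353 ± 108 and 265 ± 113 in Cre+. Gap43 held place 3 in the Cre+ pull-downs at 234 ± 148 and place 5 in the Cre- pull-downs at 131 ± 26.3.

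**Figure D1:**
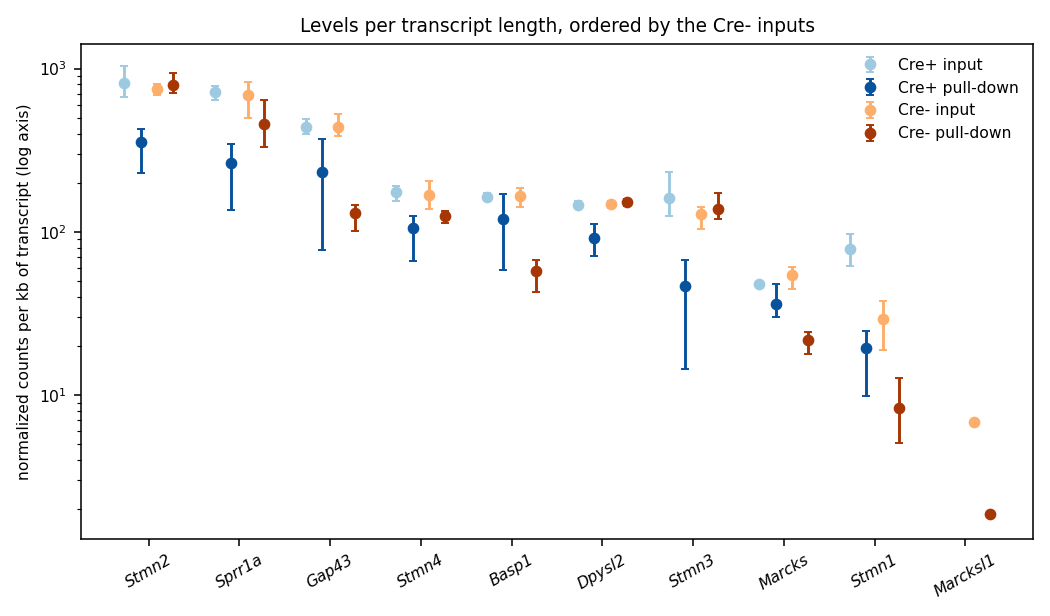
Normalized counts per kb of transcript on a log axis for each of the 10 genes, ordered by the Cre- inputs; points are means of 3 libraries and bars reach from the lowest to the highest library. Stmn2 leads in all 4 groups, from 353 in the Cre+ pull-downs to 816 in the Cre+ inputs, and Marcksl1, listed only in Cre-, is lowest.

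To find which of these transcripts were under- or over-represented in the anti-HA pull-down, pull-down was compared with input in each genotype by edgeR's quasi-likelihood test. A gene was called at a Benjamini-Hochberg adjusted p-value (FDR) below 0.1 with a change of at least 2-fold, and log2 fold changes are given ± SE. In Cre-, 5 of the 10 genes fell: Gap43, Basp1, Marcks, Marcksl1 and Stmn1, each by 2.50-fold to 3.67-fold. Stmn2, Stmn3 and Dpysl2 had almost the same level in pull-down and input. In Cre+, Stmn1 fell as well, together with Stmn2 and Sprr1a, by 2.31-fold to 4.01-fold, and the 3 listed membrane proteins did not pass. Across all genes tested, 5.83% were called lower in Cre- (672 of 11526) and 2.19% in Cre+ (196 of 8947), while 6.01% and 4.72% were called higher. Genes with fewer than 5 counts in any Cre+ library are missing from the Cre+ background. The shares of both genotypes therefore rest on unlike sets of genes. Of the 10 genes, 0 were called higher in either genotype by edgeR's quasi-likelihood test, its exact test or DESeq2. At an unadjusted p under 0.05 there were 7 of 10 in Cre- and 6 of 9 in Cre+, all of them lower, as were 15.0% and 9.55% of all genes tested. Scaling by library size alone gave 429 genes higher and 1238 lower in Cre- and 192 and 699 in Cre+. The median log2 fold change was -0.96 over the 10 genes in Cre- and -0.92 over the 9 in Cre+, against -0.04 and 0.08 over all genes tested.

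**Figure D2:**
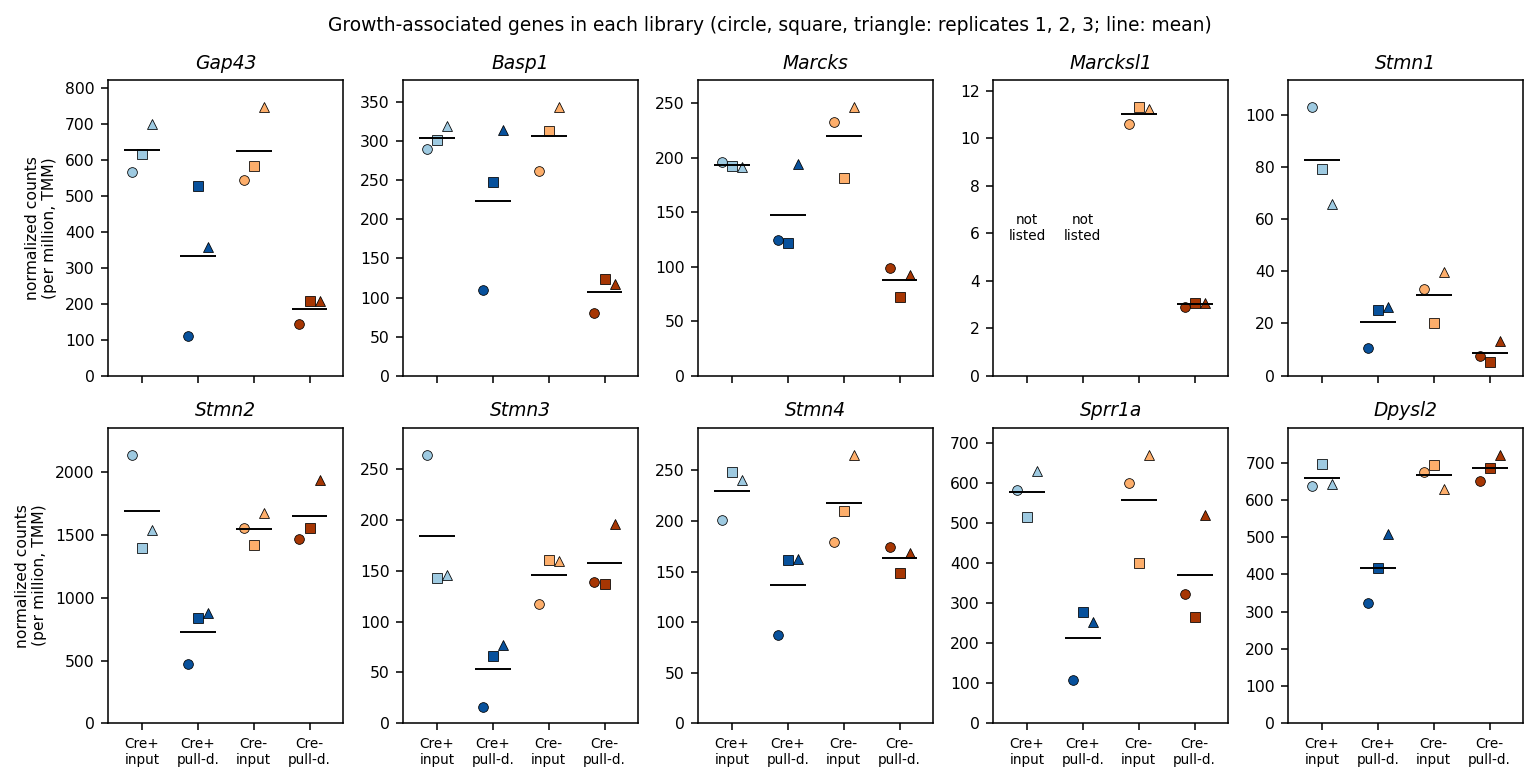
Normalized counts (per 1000000, TMM) of each gene in every library, linear axes starting at 0; circles, squares and triangles are libraries 1, 2 and 3 of a group and lines are means. Gap43, Basp1, Marcks, Marcksl1, Stmn1 and Stmn4 lie lower in all 3 Cre- pull-downs than in all 3 Cre- inputs. In Cre+, Gap43, Stmn1, Stmn2, Stmn3, Stmn4, Sprr1a and Dpysl2 do so.

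Gap43, the protein kinase C substrate of growth cones, had normalized counts of 545, 584 and 747 in the Cre- inputs and 143, 208 and 208 in the pull-downs. The groups were far apart, and the gene fell by 1.75 ± 0.19 on the log2 scale (FDR 0.000111). In Cre+ the inputs were much the same, at 565, 617 and 699, but the pull-downs scattered over 110, 527 and 358. Every pull-down was below every input there too, yet the log2 fold change of -0.92 ± 0.47 did not pass (FDR 0.267). Without Cre+ pull-down 1, the lowest of the group, it was -0.46.

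Basp1 (CAP-23), which resembles Gap43 in charge and membrane binding, followed it closely in Cre-. Its inputs held 262, 313 and 344 normalized counts and its pull-downs 79.6, 124 and 118, and it fell by 1.52 ± 0.20 (FDR 0.000336). The Cre+ inputs, at 290, 302 and 320, overlapped with the pull-downs at 109, 248 and 315, because pull-down 3 was within the input range. Its log2 fold change there was -0.44 ± 0.37 (FDR 0.493).

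Marcks, the myristoylated C-kinase substrate that cross-links actin, had 233, 181 and 247 normalized counts in the Cre- inputs and 99.1, 72.5 and 92.9 in the pull-downs. It fell by 1.32 ± 0.19 (FDR 0.000561). In the Cre+ libraries the inputs were tightly grouped at 196, 193 and 191, and the pull-downs reached from 125 and 122 up to 195. The groups overlapped and the log2 fold change was -0.39 ± 0.30 (FDR 0.443).

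Marcksl1, the smaller relative of Marcks, was the rarest of the genes and the most even. Its Cre- inputs held 10.6, 11.3 and 11.2 normalized counts, from 108 to 148 counts, and its pull-downs 2.90, 3.05 and 3.05, from 41 to 52 counts. The gene fell by 1.88 ± 0.38 on the log2 scale (FDR 0.00548).

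Stmn1 was the only one of the genes called lower in both genotypes. In Cre- it went from 33.2, 20.1 and 39.7 normalized counts in the inputs to 7.53, 5.42 and 13.4 in the pull-downs, and fell by 1.82 ± 0.38 (FDR 0.00629). In Cre+ the inputs were 103, 79.4 and 65.7 and the pull-downs 10.4, 25.1 and 26.2, and it fell by 2.01 ± 0.50 (FDR 0.0697). Pull-downs and inputs were clear of each other in both. Few markers of dividing cells, in which Stmn1 is also used, are listed: Cdk1 and Ccnb1 are in neither table and Mki67, Top2a and Birc5 only in that of Cre-. There, the list with Pcna summed to 35.2 to 39.9 normalized counts in the inputs and 31.0 to 33.4 in the pull-downs. In Cre+ only Pcna is listed, at 22.3 to 54.3 in the inputs and 3.81 to 13.7 in the pull-downs (log2 fold change -1.96 ± 0.70, FDR 0.140 in the quasi-likelihood test), and DESeq2 and the exact test called it lower. The part of such cells in the Stmn1 values was not tested.

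Stmn2, the stathmin that maintains axons and the most abundant of the genes, behaved differently in both genotypes. Its Cre+ inputs held 2141, 1394 and 1540 normalized counts and its Cre+ pull-downs 474, 839 and 881. All 3 pull-downs were below all 3 inputs, and the gene fell by 1.21 ± 0.30 (FDR 0.0698). The Cre- inputs at 1557, 1422 and 1674 and pull-downs at 1469, 1557 and 1938 overlapped, with a log2 fold change of 0.09 ± 0.15 (FDR 0.719) that was -0.15 when library size alone set the scale.

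Stmn3 had the same layout with wider scatter. In Cre+, 264, 143 and 146 normalized counts in the inputs stood against 16.3, 66.0 and 76.8 in the pull-downs. The log2 fold change of -1.80 ± 0.55 missed the threshold narrowly (FDR 0.105), and DESeq2 and the exact test called it (FDR 0.0251 and 0.0230). In Cre-, inputs of 118, 160 and 159 overlapped with pull-downs of 139, 137 and 196, at 0.11 ± 0.20 (FDR 0.747), or -0.13 under library size alone.

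Stmn4, another neuronal stathmin, was called in neither genotype. Its Cre+ inputs were 201, 249 and 241 and its pull-downs 86.8, 161 and 162 normalized counts, a log2 fold change of -0.75 ± 0.32 (FDR 0.199). The Cre- inputs of 179, 210 and 265 were all above the pull-downs of 174, 148 and 168, but by little, at -0.41 ± 0.18 (FDR 0.131).

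Sprr1a, which overexpressed promotes neurite outgrowth, had 584, 517 and 632 normalized counts in the Cre+ inputs and 109, 279.5 and 253 in the pull-downs, and fell by 1.43 ± 0.35 (FDR 0.0696) without overlap. In Cre- the inputs at 601, 402 and 672 overlapped with the pull-downs at 324, 266 and 521, and the log2 fold change was -0.59 ± 0.26 (FDR 0.150). Epidermal cells also make Sprr1a. Of 6 keratinocyte markers, 0 are listed in the Cre+ table, and the 2 in the Cre- table (Krt1 and Lor) summed to 2.65 to 4.62 normalized counts in the inputs and 0.335 to 3.35 in the pull-downs. Absence from the Cre+ table can mean fewer than 5 counts in a single library, so it does not show that the markers were not expressed.

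Dpysl2 was the steadiest of the genes between inputs, at 636, 697 and 643 normalized counts in Cre+ and 674, 694 and 630 in Cre-. The Cre- pull-downs at 651, 685 and 721 matched them, with a log2 fold change of 0.04 ± 0.13 (FDR 0.867), or -0.20 with library size alone. The Cre+ pull-downs at 323, 416 and 508 were all below the inputs, at -0.66 ± 0.25 (FDR 0.159).

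**Figure D3:**
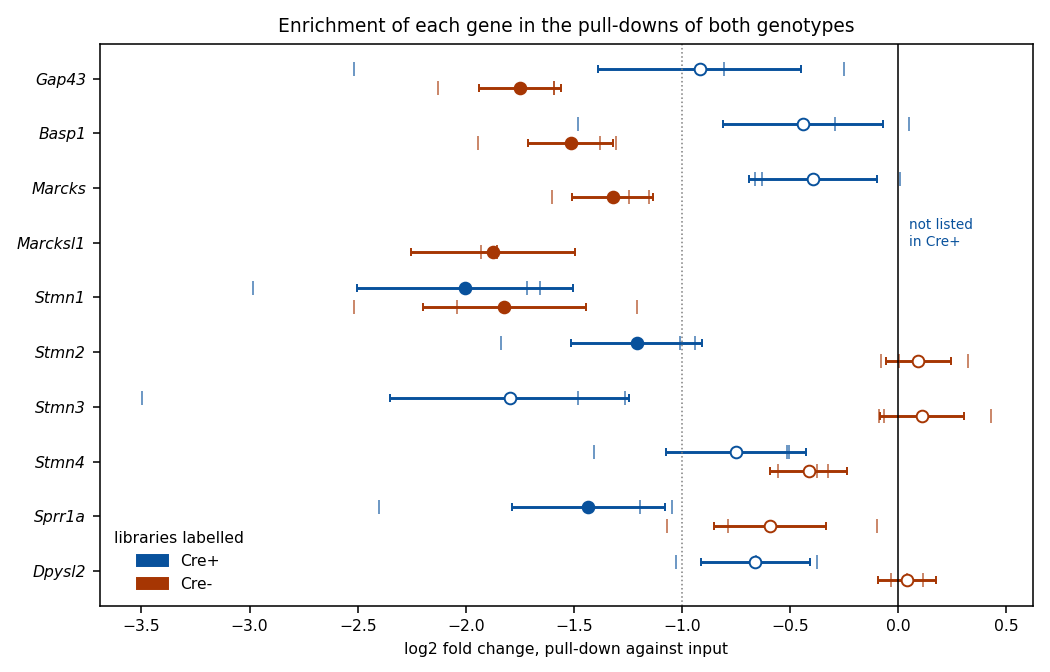
Log2 fold change of pull-down against input for each gene (circles, bars ± SE) in Cre+ (blue) and Cre- (brown), with each pull-down against the mean input as a tick; filled circles are called and the dotted line marks a 2-fold fall. The called genes are Stmn1, Stmn2 and Sprr1a in Cre+, and Gap43, Basp1, Marcks, Marcksl1 and Stmn1 in Cre-.

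Without overlap of pull-downs and inputs, 7 of 9 genes were lower in the Cre+ pull-downs and 6 of 10 in the Cre- pull-downs, where the same was true of 17.9% and 18.6% of all genes tested. These shares of all genes again rest on sets cut by unlike count limits. The level of the Cre+ pull-downs varied in common. For 8 of the 9 genes, Marcks being the exception, pull-down 1 was the lowest of the 3, as it was for 39.5% of all genes, and the 9 genes together took 0.107% of its counts against 0.248% and 0.240% of the others. The 5 calls in Cre- held without any 1 of its 6 libraries. Those in Cre+ did not: without any single input, 0 of 9 genes were called, and without pull-down 3, only Stmn1. Without pull-down 1 or 2, 3 genes were called, although with pull-down 1 left out these were Stmn1, Stmn3 and Sprr1a, since Stmn2 then fell by 0.94, under 2-fold. Across the 6 fits without 1 Cre+ library, the log2 fold change was -2.19 to -1.65 for Stmn1 and -1.65 to -1.08 for Sprr1a. For Stmn2 it was -1.34 to -0.94. Over all genes tested, 0 were called lower without Cre+ input 1 or without Cre+ input 3. For the other fits without 1 library, the share of all genes called in the same fit is not given here. The member counts in those fits are thus without a background, and calls over all genes varied widely, as the last section shows.

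Cell markers moved with the pull-downs as well. The summed level of 8 neuronal markers was 16048 to 19423 normalized counts in the Cre- inputs and 30796 to 34514 in the Cre- pull-downs, mostly Nefl and Snap25, with Snap25 called higher (1.17 ± 0.15, FDR 0.000275). The log2 fold change was below 0 for 3 of the 8, and Rbfox3 was lower in all 3 Cre- pull-downs than in all inputs (-0.76 ± 0.15, FDR 0.0045, under 2-fold). In Cre+ it was 14506 to 20505 in the inputs and 13140 to 14513 in the pull-downs, with Tubb3 (-1.19 ± 0.24, FDR 0.0448) and Uchl1 (-1.85 ± 0.32, FDR 0.0342) called lower. Of the glial markers, 2 of 7 tested were called lower in the Cre- pull-downs (Apoe and Fabp7) and 0 of 5 in Cre+ by edgeR, with 1 at an unadjusted p under 0.05. Summed glial markers were 373 to 446 in the Cre- inputs and 513 to 591 in the pull-downs, mostly S100b, and 304 to 562 and 171 to 329 in Cre+. Fibroblast markers summed to 77.6 to 95.9 in the Cre- inputs and 25.2 to 89.8 in the pull-downs, with Col1a1 called lower, and to 61.5 to 95.4 and 66.8 to 76.5 in Cre+. The 3 listed endothelial markers summed to 46.1 to 82.3 in the Cre+ inputs and to 381, 96.6 and 101 in Cre+ pull-downs 1, 2 and 3, all above the inputs, and to 58.5 to 88.1 and 15.3 to 113 in Cre-. None of them was called by the quasi-likelihood test in Cre+, with 1 at an unadjusted p under 0.05, while DESeq2 called Cdh5 and the exact test Pecam1 higher. Macrophage markers summed to 25.8 to 68.2 in the Cre+ inputs, 112, 16.8 and 4.85 in the Cre+ pull-downs, 52.8 to 126 in the Cre- inputs and 50.2 to 74.6 in the Cre- pull-downs. The sums cover 5 listed genes in Cre+ and 8 in Cre- for glia, 4 and 6 for fibroblasts, and 2 and 4 for macrophages. For these cell types they cannot be compared between genotypes. The part of any of these cells in the values of the 10 genes was not tested.

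Whether enrichment differed between genotypes was tested as an interaction over all 12 libraries, for the 9 genes listed in both tables. Only Stmn2 passed, with an enrichment lower in Cre+ by 1.26 ± 0.34 on the log2 scale (FDR 0.0799). The background in this test was 2.03% of 8954 genes called lower (182) and 2.33% called higher (209), or 275 and 72 genes with library size alone. Stmn3 differed in the same direction by more, at -1.86 ± 0.63, but did not pass (FDR 0.139). It was called by DESeq2 (FDR 0.0532), and with any one of Cre+ pull-downs 1, 2 and 3 left out (FDR 0.0419 to 0.083). Gap43, Basp1 and Marcks differed the other way without passing, at 0.88 ± 0.56 (FDR 0.406), 1.12 ± 0.45 (FDR 0.198) and 0.96 ± 0.34 (FDR 0.154). With Cre+ pull-down 1 left out, all 3 were called higher, at 1.30, 1.45 and 1.08. Marcks was called higher also without Cre+ pull-down 2 (FDR 0.0724) and by DESeq2 (FDR 0.0609). The calls without 1 library are not set here against the share of all genes called in the same fit. Calls over all genes varied widely between such fits, as the ranges in the last section show. Dpysl2, at -0.67 ± 0.26 (FDR 0.192), Sprr1a, at -0.80 ± 0.48 (FDR 0.373), and Stmn4, at -0.30 ± 0.37 (FDR 0.683), did not pass. Stmn1 gave -0.14 ± 0.65 (FDR 0.925), and its sign changed in 4 of the 12 fits without 1 library. The Stmn2 call itself was absent without any one of the 6 inputs and without Cre- pull-down 2 or 3, where its FDR was 0.110 to 0.215 and its difference -1.06 to -1.38.

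Inputs were compared to see whether the cultures themselves differed. Of the 9 genes, 0 were called by edgeR's quasi-likelihood test, with a background of 0.0% of 8954 genes, and 1 had an unadjusted p under 0.05, as had 179 of all genes. That gene was Stmn1, with 121, 93.1 and 75.7 normalized counts in the Cre+ inputs and 37.0, 22.1 and 43.9 in the Cre- inputs, on a scale common to the 6 inputs. All 3 Cre+ inputs were above all 3 Cre- inputs, which held in either direction for 7.66% of all genes. The log2 fold change was 1.49 ± 0.28 with an unadjusted p of 0.00032 and an FDR of 0.999. Stmn1 was the only one of the 9 genes past the threshold in DESeq2 (FDR 0.00642) and in the exact test of edgeR (FDR 0.00684). The share of all genes that these 2 tests called between inputs is not given here. The estimate was between 1.25 and 1.71 without any 1 of the libraries. Pcna, the marker of dividing cells listed in both tables, had a log2 difference of 0.08 ± 0.34 between inputs (FDR 0.999), and the part of the Gm11223 pseudogene in the Stmn1 values was not tested.

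The other 8 genes differed by at most 0.41 on the log2 scale between the inputs. Stmn3 stood at 0.41 ± 0.25, with 309, 167 and 168 normalized counts in Cre+ against 131, 177 and 176 in Cre-, so that only Cre+ input 1 was high. The same library was high in Stmn2, with 2506 against 1635 and 1775 in the other Cre+ inputs and 1735, 1565 and 1849 in Cre-, and that gene gave 0.20 ± 0.18. Log2 differences of Gap43, Basp1, Marcks, Stmn4, Sprr1a and Dpysl2 were between -0.11 and 0.15, each less than 1 SE from 0. Cre+ input 1 also correlated less with the other Cre+ inputs across genes, at 0.922 and 0.923, than these did with each other, at 0.978.

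**Figure D4:**
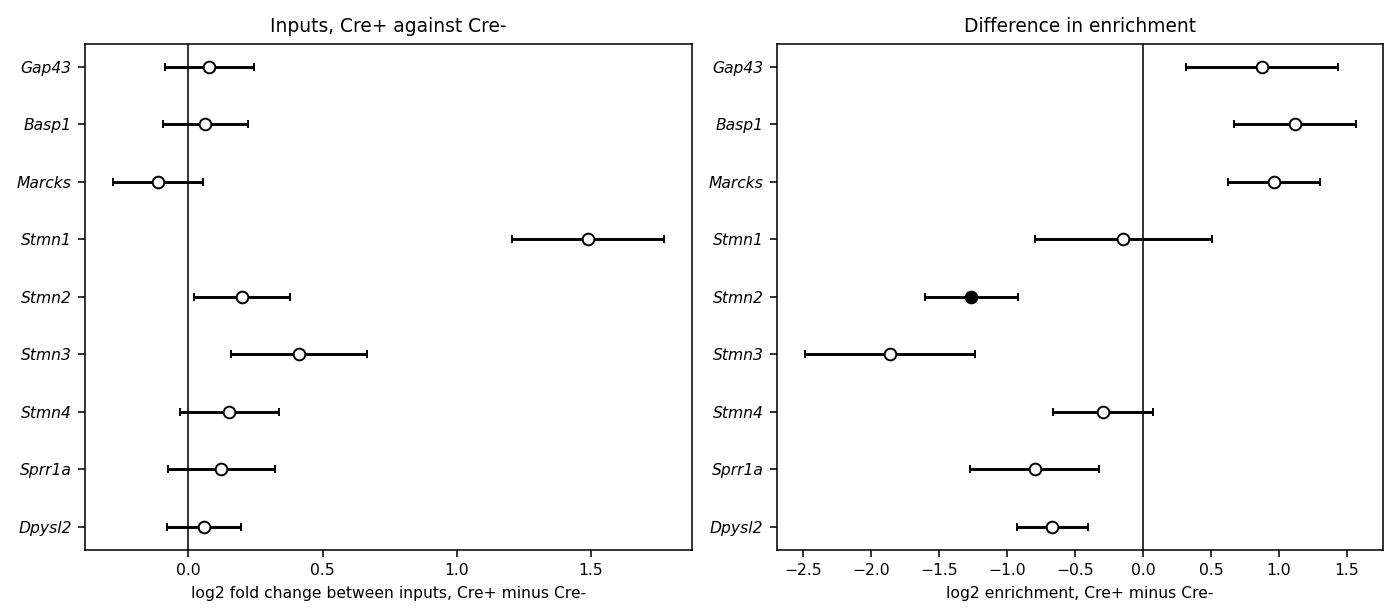
Left, log2 fold change between inputs (Cre+ minus Cre-) and right, difference in log2 enrichment (Cre+ minus Cre-) for the 9 genes listed in both tables; circles are estimates, bars ± SE, and a filled circle is called. Stmn1 stands apart between the inputs at 1.49 and Stmn2 is the only gene called in the right panel, at -1.26.

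Related genes show how far the 10 stand alone. The other CRMP genes, whose products form tetramers with CRMP2, gave 0 calls of 3 tested in Cre+ and 0 of 4 in Cre- by edgeR or DESeq2, with 0 at an unadjusted p under 0.05. Crmp1 was nearest to Dpysl2 in Cre+, at -0.80 ± 0.40 (FDR 0.263), and stood at 0.09 ± 0.21 in Cre- (FDR 0.817). Dpysl3 stood at 0.03 ± 0.37 and 0.24 ± 0.15, and Dpysl5 at 0.50 ± 0.36 and 0.04 ± 0.17.

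Kinases and calcium sensors that act on these proteins were listed as well, among them the calmodulins that bind Gap43 and Marcks, the protein kinase C isoforms that phosphorylate them, and the Jun kinases that act on stathmins. In Cre+, the quasi-likelihood test called 1 of 17 tested, Calm2, which fell (-1.72 ± 0.34, FDR 0.0422), from a mean of 3233 to 978 normalized counts. In Cre-, 1 of 17 rose: Camk2b (1.03 ± 0.21, FDR 0.00631), from 25.0 to 51.0, and the exact test also called Camk2a and Prkcd lower. The tools differed in Cre+, where DESeq2 called 4 higher (Rock2, Prkca, Prkce and Rock1) and 2 lower, and the exact test 2 higher and 1 lower. The interaction was called for Calm2, lower in Cre+ (-1.65 ± 0.42, FDR 0.0695), and for the kinase gene Rock1, higher in Cre+ (1.89 ± 0.50, FDR 0.0744), while DESeq2 called 4 higher and 1 lower. The median log2 fold change of the list was 0.42 in Cre+ and 0.03 in Cre-.

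Among 20 other genes known to be induced in injured sensory neurons, 16 were tested in Cre+ and 18 in Cre-. In Cre+ 1 fell, the neuronal tubulin Tubb3 given above, and DESeq2 and the exact test also called Lgals1 lower. In Cre-, 3 fell: the tubulin Tubb2b (-1.68 ± 0.19, FDR 0.000122), the neuropeptide gene Gal (-2.09 ± 0.34, FDR 0.00152) and the endopeptidase gene Ecel1 (-1.02 ± 0.25, FDR 0.0146), which DESeq2 did not call. The neuropeptide gene Adcyap1 (PACAP) rose there (1.11 ± 0.31, FDR 0.0397). Atf3, a transcription factor of injured neurons, gave -0.91 ± 0.31 in Cre+ (FDR 0.132) and -0.21 ± 0.15 in Cre- (FDR 0.374), and Jun gave 0.47 ± 0.32 (FDR 0.398) and 0.93 ± 0.21 (FDR 0.0103, under 2-fold). Enrichment differed between genotypes for Adcyap1, lower in Cre+ (-1.95 ± 0.48, FDR 0.0689), and Ecel1, higher in Cre+ (2.15 ± 0.56, FDR 0.0725), while DESeq2 called 4 higher and 2 lower. The list's median log2 fold change was -0.65 in Cre+ and -0.44 in Cre-. Between inputs, 0 genes of these lists were called by edgeR or DESeq2, and 0 had an unadjusted p under 0.05.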

How the data were processed

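The authors aligned 50-base paired-end reads to mm10 with STAR and counted uniquely mapped reads per RefSeq gene with HTSeq. The deposited tables, 1 for each genotype, hold these counts with a mean FPKM per gene, which the authors computed and which served here only as the filter (mean FPKM above 1). The submitters' processing notes also name CASAVA 1.8.2. In the tables, 18 columns of per-sample values beyond the 12 libraries were not used. The Cre+ table was assigned by the sample descriptions. Its column names give the fraction and a number, but its pull-down columns match titles of Cre- samples apart from punctuation, so the columns were mapped to groups only and their numbers only name libraries.

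Genes past the filter were scaled by TMM and tested in edgeR 4.0.16 (R 4.3.3) with robust quasi-likelihood fits, on the 6 libraries of a genotype, the 6 inputs, or all 12 for the interaction. The SE is the log2 fold change divided by the square root of F. On simulated counts with 200 changed genes, the fits recovered 100% for each genotype and the inputs and 99% for the interaction. They also called 0 unchanged genes in Cre+, 6 in Cre-, 2 for the inputs and 21 for the interaction. The fold sizes and the spread set in that simulation are not given here. Recovery at the spread of the Cre+ pull-downs was not tested. The alternatives were DESeq2 1.42.0, edgeR's exact test, other filters, scalings and thresholds, 1 fit of all 12 libraries, a replicate block in Cre-, each library left out, and, added after the values were seen, fits without robust estimation. Sequence windows of 50 bases were compared with all GENCODE M21 transcripts. The genes and lists were chosen with earlier results of these data known. The genes named are the 10 and, per list and comparison, up to 4 called genes with the smallest FDR; other listed genes, such as Crmp1, Atf3, Jun, Pcna and Nefl, were named beyond this rule after their values were seen. Counts without molecular identifiers are not independent molecules. Each library pooled mice, so p-values measure the spread between pools. Figures were drawn with matplotlib 3.10.9.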

Additional observations from a re-analysis of the deposited data

Results flagged for a closer look

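The enrichment of Stmn2 differed between genotypes, by -1.26 ± 0.34 on the log2 scale (edgeR interaction test, FDR 0.0799), with all 3 Cre+ pull-downs below all 3 Cre+ inputs and the Cre- pull-downs within or above the range of their inputs. Of the neuronal markers, 7 of 8 were below 0 in the same test, with a median of -0.82 against 0.13 over all genes. Snap25 (-1.76) and Uchl1 (-1.95) were called lower in Cre+ and Rbfox3 (1.02) higher. Of the proprioceptor markers, 4 of 5 were below 0, with a median of -1.93, and Spp1 (-3.59) and Etv1 (-2.41) were called lower. Runx3 passed the test in the pull-downs labelled Cre- and did not in those labelled Cre+. The part of any of these in the Stmn2 value was not tested.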

How the results depend on the processing

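The 5 genes that fell in Cre- were called in all alternatives run, replicate block included, except that the fit of all 12 libraries does not hold Marcksl1 and called the other 4. That block, fitted in Cre- only, called 704 genes higher and 792 lower. Inputs were taken from the lysates of the pull-downs, but no source used here says that equal numbers mark one lysate. Same-numbered samples correlated with r of 0.0746, 0.0335 and 0.141, and each pull-down correlated best with the input of its own number. Planned blocks for Cre+ and the inputs were not run, since the names of the Cre+ columns do not tie their numbers to single Cre+ samples. Scaling by library size alone moved the median of all genes from 0.08 to -0.36 in Cre+, from -0.04 to -0.27 in Cre- and from 0.13 to -0.11 for the interaction, and upper-quartile scaling moved it to -0.12 in Cre+ and -0.05 for the interaction. Library size alone called 6 of the 9 genes lower in Cre+ and reversed Stmn2 (-0.15), Stmn3 (-0.13) and Dpysl2 (-0.20) in Cre-.

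At an FDR of 0.05, 0 of the 9 genes were called lower in Cre+ and 0 in the interaction. DESeq2 called 1 of the 9 genes higher between the inputs, as did the exact test, and in the interaction DESeq2 called 1 of the 9 higher (Marcks) and 2 lower. Over all genes in Cre+, calls higher and lower were 422 and 196, and became 139 and 26 at an FDR of 0.05, 1103 and 568 in DESeq2, 786 and 457 in the exact test, 249 and 266 with upper-quartile scaling, 192 and 699 with library size alone, and 1250 and 948 with all 12 libraries in 1 fit. In Cre- they were 693 and 672, and became 1502 and 1284 with no fold limit, 429 and 1238 with library size alone, and 270 and 175 with all 12 libraries. In the interaction, 209 and 182 became 35 and 60 at an FDR of 0.05, 612 and 428 in DESeq2, 85 and 205 with upper-quartile scaling, and 72 and 275 with library size alone. The causes were not tested.

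With 1 library left out, calls ranged from 4 to 803 higher and from 0 to 540 lower in Cre+, from 575 to 817 and 525 to 1060 in Cre-, and from 13 to 713 and 30 to 694 in the interaction. Of the 9 genes, 0 to 3 were called lower in Cre+, and 0 to 3 higher and 0 to 2 lower in the interaction. Signs changed only near 0: in Cre- Stmn2 ranged from -0.023 to 0.19 and Stmn3 from -0.065 to 0.21, between inputs Gap43 from -0.0075 to 0.22, Basp1 from -0.033 to 0.15, Stmn2 from -0.0099 to 0.32 and Sprr1a from -0.069 to 0.27, and in the interaction Stmn1 from -0.40 to 0.29. Over all alternatives, 581 of the values of single genes kept direction and call, 24 lost a call, 18 gained one and 14 changed sign. Marcksl1 could not be compared in Cre+, whose table does not list it, and the effect of depth was not tested.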
